A study of Mus musculus with 9 samples.

Results

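The protein synthesis genes described here are the members of the cytosolic ribosome and the translation factor families whose transcripts were measured after Argonaute 2 (Ago2) immunoprecipitation from mouse amygdala. Ago2 is the protein that carries microRNAs to their target transcripts. Members were chosen by symbol alone, as genes whose names begin with Rpl or Rps and a digit, Eif1 to Eif6, Eef1, Eef2, Etf1 or Gspt, without the Argonaute genes once named Eif2c. There were 42 such genes among 9803 in the table. The animals were male C57BL/6J mice, 10 weeks old when chronic social defeat, a stress of repeated exposure to an aggressor, was started. The 9 arrays comprised 3 from susceptible mice, 3 from resilient mice and 3 from control mice that were not defeated (numbered 1, 2 and 4), and tissue was taken 8 days after defeat ended. All 3 groups were precipitated with Ago2, and 100 ng of RNA per sample went onto Affymetrix whole-transcript arrays. The labels give neither the criterion that divided susceptible from resilient mice nor whether an array stands for 1 animal or a pool. The p-values therefore measure the spread among these arrays and no more, and that spread may be technical.

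A cytosolic ribosome consists of a small subunit, which reads the messenger RNA, and a large subunit, which joins amino acids. Initiation factors load the small subunit on the capped end of a transcript and find the start codon, elongation factors move the ribosome along, and release factors free the finished protein. In neurons, part of this machinery works near synapses, and 2 kinase pathways set its rate: mTORC1, through eIF4E binding proteins and S6 kinases, and the integrated stress response, through phosphorylation of eIF2. The measured signal is of transcripts found with Ago2, so a transcript's abundance, its binding to Ago2 and its carry-over cannot be told apart here, nor can fewer cells of a type and less RNA per cell.

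The deposited values were log2 RMA signals, and every symbol in the table had a probe set with a one-way analysis of variance p of at most 0.287 among the 3 groups. A selection of genes for such differences is inferred from these values, and no source used here states it. The ribosome itself was thinly represented. Of 79 canonical ribosomal protein genes, 9 were in the table (11.4%), with 7 of 47 from the large subunit and 2 of 32 from the small. By comparison, 22 of 46 initiation factor symbols (47.8%) and 8588 of 21896 protein-coding genes (39.2%) were present. One of the 9, Rplp2 of the ribosomal stalk, has a symbol outside the naming rule, and its defeated minus control difference was -0.02 on the log2 scale.

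The 42 members fell into 8 ribosomal proteins (among them Rpl5, Rpl10a, Rpl12, Rpl23a, Rpl29, Rpl39 and Rps6), 3 ribosomal paralogues or pseudogenes (Rpl10l, Rpl26-ps2 and Rpl32-ps) and 21 initiation factors. The other 10 were the eIF2 kinase Eif2ak4, the eIF4E binding protein Eif4ebp2, 6 kinases named after S6, Eif5a and the eEF2 kinase gene Eef2k. The 6 kinases (Rps6ka1, Rps6ka2, Rps6ka4, Rps6ka5, Rps6kc1 and Rps6kl1) matched by the spelling of their names and are not part of the ribosome. Neither Rps6kb1 nor Rps6kb2 was present, so these 6 do not stand for the S6 kinases through which mTORC1 acts. No Eef1, Eef2, Etf1 or Gspt symbol was in the table, so elongation is represented here by Eif5a and Eef2k alone. Expected markers of the tissue were thin in the same table: 1 of 11 amygdala markers (Cyp26b1, mean log2 signal 8.34 in controls) and 1 of 6 pan-neuronal markers (Stmn2) were listed.

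No member passed limma's test at an adjusted p under 0.05 in any of the 4 comparisons. In defeated minus control, where defeated is the average of both defeated groups, 0 of 42 members were called against 1.29% of all genes. The count was also 0 of 42 in susceptible minus control, where 2.4% of all genes were called, and 0 of 42 in resilient minus control and in susceptible minus resilient, where 0.0% were. At an unadjusted p under 0.05 there were 15 members in defeated minus control (36.9% of all genes), 14 in susceptible minus control (40.7%), 11 in resilient minus control (21.2%) and 5 in susceptible minus resilient (11.8%), to be read with the inferred selection of the table in mind. With an allowance for that selection, p divided by the table's limit before adjustment, 0 of 42 members were called in each comparison, against 0.0102% of all genes in susceptible minus control and 0.0% in the others. The first 3 comparisons share the control arrays.

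Differences were small. Among members, only Eif4e1b reached 1.2-fold in defeated minus control, 1 of 42 (2.38%) against 3.98% of all genes, and the median size of a member's difference was 0.10 on the log2 scale. By sign, 25 of 42 members were higher in defeated mice than in controls (58.6% of all genes had a difference above 0). The plot of members by array shows blocks of ribosomal genes at or below the control level and initiation factors mostly above it, with exceptions in both classes.

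**Figure D1:**
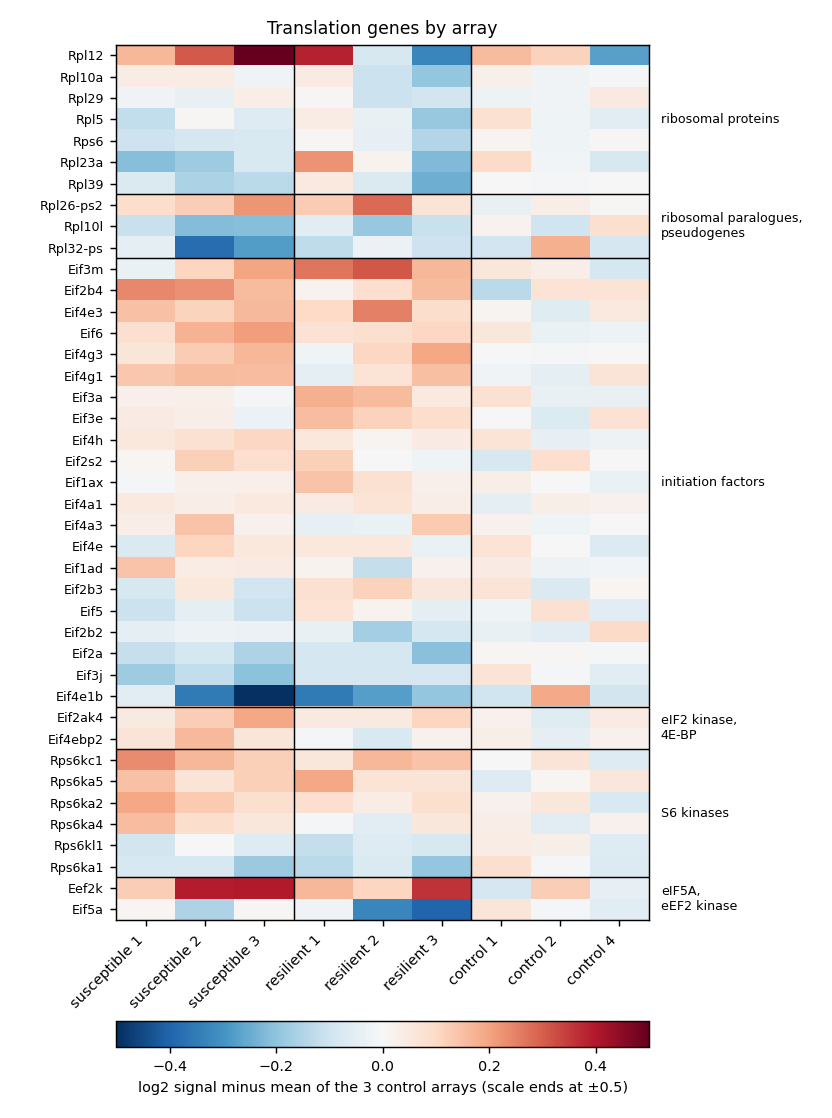
Log2 RMA signal of 41 of the genes in each of the 9 arrays, minus the mean of the 3 control arrays, with genes grouped by role and ordered by their defeated minus control difference. The colour scale ends at 0.5 on either side; Rpl12, Eif4e1b and Eef2k hold some of the strongest colours.

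Ribosomal protein transcripts were lower in defeated mice for 9 of 11 Rpl and Rps genes, paralogues and pseudogenes included, none by a difference that passed the test. Their median defeated minus control difference was -0.07, against 0.04 for all genes and 0.05 for the initiation factors. The exceptions were Rpl12 and the pseudogene Rpl26-ps2, whose mean log2 signals of 6.10 and 5.56 lay below the array medians of 7.11 to 7.19. Many ribosomal protein transcripts begin with a run of pyrimidines at the cap, the 5′ TOP element, through which mTORC1 controls their translation. The sequences around the annotated start of 6 ribosomal members and of the 2 initiation factors with the smallest p in defeated minus control are shown because this element is common among ribosomal transcripts. They run from 20 bases before to 20 bases after the start, 5′ to 3′ on the gene's strand, from RefSeq on GRCm38.p6, and capitals mark the longest run of C and T that begins and ends between 10 bases before and 20 after the start:
Rps6, chr4:86857348-86857387, minus strand: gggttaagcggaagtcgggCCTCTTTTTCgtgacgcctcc
Rpl12, chr2:32961692-32961731, plus strand: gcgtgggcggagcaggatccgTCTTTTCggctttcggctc
Rpl39, chrX:37085203-37085242, minus strand: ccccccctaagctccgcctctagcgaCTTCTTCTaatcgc
Rpl10a, chr17:28328451-28328490, plus strand: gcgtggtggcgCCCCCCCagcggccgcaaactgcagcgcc
Rpl5, chr5:107900508-107900547, plus strand: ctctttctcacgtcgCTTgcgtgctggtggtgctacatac
Rpl10l, chr12:66284382-66284421, minus strand: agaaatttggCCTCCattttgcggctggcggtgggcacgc
Eif3j (RefSeq symbol Eif3j1), chr2:122028560-122028599, plus strand: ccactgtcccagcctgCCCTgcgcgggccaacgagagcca
Eif2a, chr3:58525801-58525840, plus strand: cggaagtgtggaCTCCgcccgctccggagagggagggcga
A run of at least 7 bases of only C and T, searched on the gene's strand alone, was found in that window for 4 of 6 ribosomal members with an entry (66.7%), for 31 of 58 canonical ribosomal protein genes (53.4%) and for 3 of 16 initiation factors (18.75%). Over all protein-coding genes it was found in 3600 of 17491 (20.6%). The run in Rps6 was 10 bases long and covered the annotated first base, and that of Rpl5 was 3. In Rpl12 and Rpl39 the run began at bases 2 and 7 of the transcript, and in Rpl10a it lay wholly before the start. A run counted in this window is therefore not in itself a 5′ TOP element. For a gene with several promoter entries, the entry with the longest run was used. A match describes the annotated sequence and does not show which start was used in these cells. Promoter entries were matched for 32 of the 42 members.

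Rps6 encodes the small subunit protein that S6 kinases phosphorylate. Its log2 signal was 12.65, 12.67 and 12.68 in susceptible arrays, 12.76, 12.72 and 12.61 in resilient arrays, and 12.77, 12.74 and 12.76 in control arrays. All 3 susceptible arrays lay below all controls, and resilient 1 lay within them. The defeated minus control difference was -0.07 (SE 0.037, adjusted p 0.160). Rpl39, a very small protein at the exit tunnel of the large subunit, had 13.06, 12.98 and 12.9996 in susceptible arrays, 13.18, 13.06 and 12.89 in resilient arrays, and 13.14, 13.13 and 13.14 in controls. Here the controls were almost identical, resilient 1 was above them and the other 5 defeated arrays were below, with a difference of -0.11 (SE 0.056, adjusted p 0.170). Rpl12, at the base of the ribosomal stalk, was above the control mean in all susceptible arrays, with 6.16, 6.30 and 6.52 in susceptible arrays, 6.38, 5.92 and 5.67 in resilient arrays, and 6.15, 6.11 and 5.72 in controls. Its susceptible minus resilient difference of 0.34 (SE 0.179, adjusted p 0.411) was the widest of any member in that comparison, and the arrays of those groups overlapped. The Rpl12 signal was low, with a mean of 6.10 against array medians of 7.11 to 7.19.

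Another 4 ribosomal proteins are given by their differences. Rpl5, which carries 5S ribosomal RNA into the large subunit, had a defeated minus control difference of -0.06, Rpl10a -0.03, Rpl29 -0.04 and Rpl23a -0.07, with adjusted p between 0.369 and 0.563. Of the 3 paralogues and pseudogenes, Rpl10l, a testis-expressed copy of the X-linked Rpl10, had 4.67, 4.56 and 4.57 in susceptible arrays, 4.72, 4.59 and 4.67 in resilient arrays, and 4.80, 4.68 and 4.86 in controls. Susceptible arrays lay below every control, and the defeated minus control difference was -0.15 (SE 0.049, adjusted p 0.0965). The pseudogene Rpl26-ps2 had 5.55, 5.58 and 5.68 in susceptible arrays, 5.58, 5.74 and 5.53 in resilient arrays, and 5.42, 5.49 and 5.46 in controls. It was the 1 gene of the 11 whose defeated arrays were all on one side of all controls, against 17.4% of all genes, with a difference of 0.15 (SE 0.051, adjusted p 0.0992). Rpl32-ps had 5.17, 4.84 and 4.94 in susceptible arrays, 5.09, 5.19 and 5.12 in resilient arrays, and 5.12, 5.40 and 5.14 in controls, which overlap (difference -0.16, SE 0.082, adjusted p 0.159). All 3 signals were low, with means of 4.68 for Rpl10l, 5.56 for Rpl26-ps2 and 5.11 for Rpl32-ps against array medians of 7.11 to 7.19. Probes of such copies can also bind the parent transcript, and the counting of signal between copies is uncertain.

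Ribosomal genes have many processed copies, and several symbols stood for many probe sets. The kept value was that of the probe set with the highest mean. Whether it lies at the gene itself or at a copy was not checked, here or for other members with several probe sets. Rpl29 had 21 probe sets, Rpl23a 13, Rps6 8 and Rpl5 5, and within each symbol the median correlation between probe sets over the 9 arrays was between 0.919 and 0.964, so they do not count as independent measurements. In defeated minus control, 20 of 21 Rpl29, 12 of 13 Rpl23a, 8 of 8 Rps6 and 5 of 5 Rpl5 probe sets were negative. Between the defeated groups the symbols parted: all 21 Rpl29 probe sets were higher in susceptible than in resilient arrays (median 0.07), and none of the 13 Rpl23a probe sets was (median -0.18). For the kept probe sets this amounted to 0.06 for Rpl29 (adjusted p 0.504) and -0.16 for Rpl23a (adjusted p 0.431). Rpl23a had 10.14, 10.18 and 10.28 in susceptible arrays, 10.58, 10.37 and 10.14 in resilient arrays, and 10.45, 10.34 and 10.28 in controls, so resilient 1 and resilient 3 stood at opposite ends of that group.

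**Figure D2:**
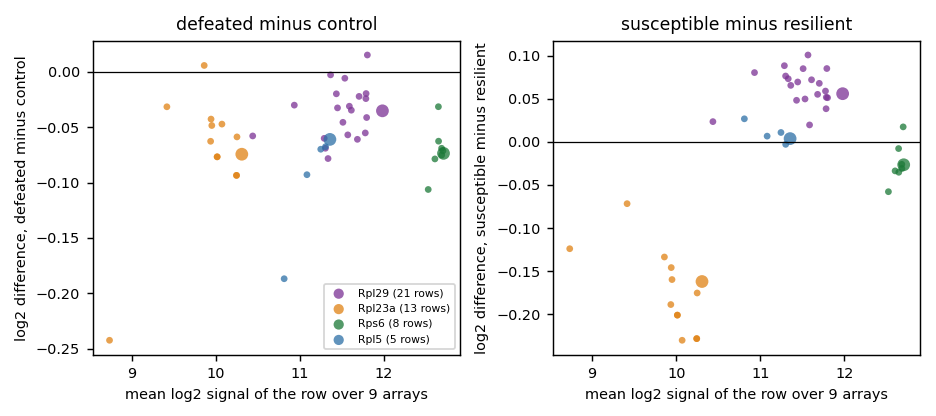
Each point is a probe set of Rpl29 (21), Rpl23a (13), Rps6 (8) or Rpl5 (5), placed by its mean log2 signal over 9 arrays and by its log2 difference, defeated minus control on the left and susceptible minus resilient on the right; the larger point is the probe set kept for the gene. On the left nearly all lie below 0, and on the right Rpl29 lies above 0 and Rpl23a below it.

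Array by array, the median of the 11 ribosomal genes relative to the control mean was -0.07, -0.08 and -0.08 in susceptible 1 to 3, 0.04, -0.07 and -0.19 in resilient 1 to 3, and 0.02, -0.02 and 0.00 in control 1, 2 and 4. The 3 susceptible arrays lay close together and below every control, and the resilient arrays spread from above the controls to well below them. Subtracting the control mean in itself holds the control values near 0. The defeated minus control median was -0.03 without resilient 3, -0.05 without control 1, and -0.12 once all arrays were shifted to one median. The resilient minus control median of -0.06 was -0.02 without resilient 3 and -0.11 without resilient 1, and -0.10 after the shift. The susceptible minus control median of -0.09 was -0.15 after that shift. The susceptible minus resilient median was -0.01, and 0.04 without resilient 1. The shift moves every gene's difference by one constant, downward in each comparison with control. The lower medians after it, and the signs of genes already lower, are therefore no separate check. With quantile normalisation 2 of 11 genes were higher in defeated mice, the same count as without it.

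**Figure D3:**
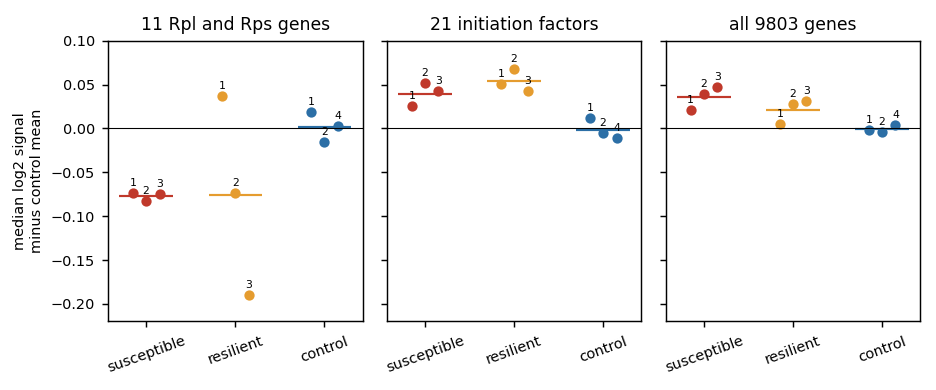
Median over genes of log2 signal minus the control mean, for the 11 Rpl and Rps genes, the 21 initiation factors and all 9803 genes; each point is an array with its replicate number, and the line is the mean of 3 arrays. Ribosomal medians lie near -0.08 in the 3 susceptible arrays and between -0.19 and 0.04 in the resilient ones, and initiation factors lie a little above 0 in all 6 defeated arrays, as all genes do.

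Markers of other cell types also differed among these arrays. Only markers in the table could be summed, and its inferred selection favours genes that differ among the 3 groups. Summed linear signal of 8 of 9 choroid plexus and ependyma markers was 19630 to 24001 in susceptible arrays, 15497 to 20057 in resilient arrays and 14833 to 19591 in control arrays. For 3 of 9 oligodendrocyte markers it was 1741 to 1886, 1651 to 2343 and 2205 to 2369 in susceptible, resilient and control arrays, and for 4 of 10 microglial markers 2434 to 2667, 2337 to 2771 and 2754 to 2898. The oligodendrocyte and microglial sums of resilient 1 were the highest of the 6 defeated arrays, and the ribosomal median of resilient 1 was as well. Striatal-type neuron markers (2 of 8) summed to 2984 in resilient 1 and to at most 1997 in the other 8 arrays. An RMA signal has no zero, so no marker can be called absent. Single listed markers summed to 1885 to 2208, 2144 to 2324 and 2168 to 2181 for the astrocyte gene Gja1 in susceptible, resilient and control arrays, and to 6084 to 6188, 6243 to 6446 and 6295 to 6781 for Stmn2. The part of tissue makeup in the ribosomal values was not tested.

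Initiation factors were mostly a little above control. Of 21 factors, 16 had a positive defeated minus control difference, with a median of 0.05 against 0.04 for all genes. Centred on one array median the initiation factor median was -0.00040 (10 of 21 higher), and with quantile normalisation -0.00053 (10 of 21 higher), so their direction was that of the whole table. Ribosomal minus initiation was taken in each array from the class medians, after each gene's control mean was subtracted. It was -0.10, -0.13 and -0.12 in susceptible 1 to 3, and -0.01, -0.14 and -0.23 in resilient 1 to 3. In control 1, 2 and 4 it was 0.01, -0.01 and 0.01, where the subtraction itself holds values near 0. All 6 defeated values rest on the same 3 controls. The contrast was well below every control in 5 of 6 defeated arrays, and in resilient 1 it lay just under the lowest control. From the gene differences it came to -0.12 in defeated minus control, -0.13 in susceptible minus control, -0.11 in resilient minus control and -0.02 in susceptible minus resilient.

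**Figure D4:**
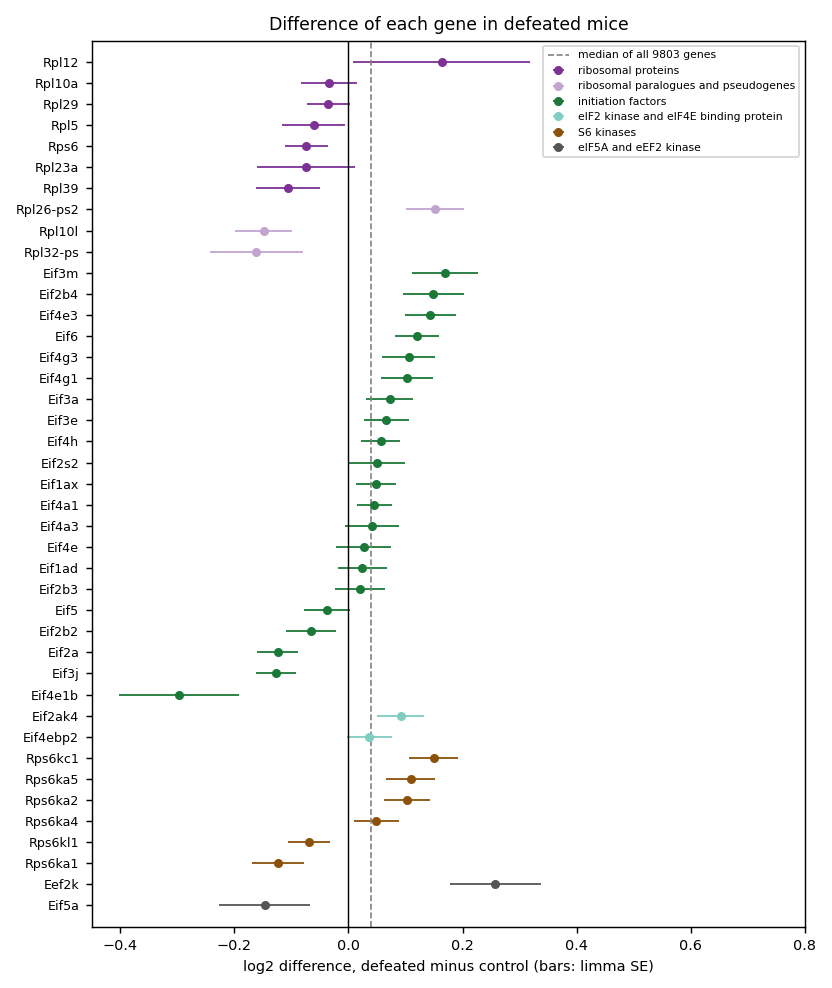
Defeated minus control log2 difference of 41 of the genes (points) with limma's standard error (bars), coloured by role, and the median of all 9803 genes as a dashed line at 0.04. Of the 10 Rpl and Rps genes drawn 8 lie left of 0, of the 21 initiation factors 16 lie right of it, and no gene passed an adjusted p of 0.05.

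The cap-binding complex eIF4F, its helicase partners and relatives contributed 8 genes, 7 of them higher in defeated mice (median 0.05). After the shift to one median this was 4 of 8 and after quantile normalisation 5 of 8. Eif4e3, a less studied relative of the cap-binding protein, had 9.42, 9.38 and 9.43 in susceptible arrays, 9.37, 9.52 and 9.36 in resilient arrays, and 9.28, 9.21 and 9.32 in controls. All 6 defeated arrays exceeded all controls, with a difference of 0.14 (SE 0.044, adjusted p 0.0855). The helicase Eif4a1 also had all 6 above all 3 controls, by 0.05 (adjusted p 0.246), in the kept probe set. Its other 2 probe sets gave 0.02 and -0.0020, both with overlapping arrays. The scaffold proteins Eif4g1 (0.10, adjusted p 0.138) and Eif4g3 (0.11, adjusted p 0.136) had susceptible arrays above every control and resilient arrays that overlapped them. The exception was Eif4e1b, a cap-binding protein known from oocytes, with 5.75, 5.45 and 5.25 in susceptible arrays, 5.45, 5.53 and 5.61 in resilient arrays, and 5.70, 6.00 and 5.71 in controls. At -0.30 (SE 0.105, adjusted p 0.105) it had the most negative difference of any member, and susceptible 1 lay within the controls. Its other probe set gave -0.31, with all 6 defeated arrays below all controls. Both signals were low, with means of 5.61 and 5.22 against array medians of 7.11 to 7.19. For Eif4e, the main cap-binding protein, 2 probe sets disagreed: the kept one gave 0.03 and the other -0.16.

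The eIF3 complex bridges eIF4F and the small subunit, and 4 of its genes were present: Eif3a, a core scaffold subunit, Eif3e, Eif3m and Eif3j, a loosely attached subunit that contacts the small subunit. Eif3j had the smallest p of all 42 members in defeated minus control. Its signal was 11.68, 11.73 and 11.65 in susceptible arrays, 11.77 in each of the 3 resilient arrays, and 11.92, 11.85 and 11.80 in controls. The 3 groups did not overlap, with susceptible lowest and control highest. In 5948 of 11772 probe sets at least 2 arrays, whatever their groups, had equal values. How often all 3 arrays of a group were equal was not counted. The equal resilient values add no spread to the SE behind this p. The defeated minus control difference was -0.13 (SE 0.036, adjusted p 0.0746), and the susceptible minus control difference -0.17 (SE 0.041, adjusted p 0.0583). A second Eif3j probe set also gave -0.13 in defeated minus control. In susceptible minus control, Eif3j had a limma adjusted p under 0.05 in 4 alternatives, but not with the allowance for selection. These were arrays shifted to one median, a trend in the prior, array weights and leaving out susceptible 1. They called 1497, 407, 3443 and 1930 of all 9803 genes in that order, so a call there is not particular to Eif3j.

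The other 3 subunits, whose array values are given because they accompany Eif3j and not by a rule, had positive defeated minus control differences. With quantile normalisation 2 of the 4 eIF3 genes were higher and 2 lower (median 0.0040), so this split depended on scaling. In susceptible minus control Eif3a and Eif3e differed by 0.02 and 0.01, less than the median of all genes, 0.05. Eif3m had 9.45, 9.59 and 9.68 in susceptible arrays, 9.75, 9.79 and 9.65 in resilient arrays, and 9.54, 9.52 and 9.40 in controls. Eif3a had 10.43, 10.44 and 10.40 in susceptible arrays, 10.58, 10.57 and 10.46 in resilient arrays, and 10.48, 10.37 and 10.37 in controls. Eif3e had 10.42, 10.41 and 10.35 in susceptible arrays, 10.53, 10.49 and 10.47 in resilient arrays, and 10.38, 10.31 and 10.45 in controls. The resilient mean was the highest of the 3 groups for each of these genes, and for Eif3e every resilient array exceeded all others. Resilient 3 lay below susceptible 3 for Eif3m and below control 1 for Eif3a, and resilient and susceptible arrays did not overlap for Eif3a and Eif3e. In resilient minus control the differences were 0.25 for Eif3m (SE 0.067, adjusted p 0.181), 0.13 for Eif3a and 0.12 for Eif3e. A second Eif3m probe set gave smaller differences, 0.11 in resilient minus control and -0.04 in susceptible minus resilient. In susceptible minus resilient all 4 eIF3 genes were negative, with -0.16 for Eif3m, -0.11 for Eif3a, -0.10 for Eif3e and -0.08 for Eif3j and an adjusted p of 0.411 each. The median was -0.11 against 0.01 for all genes, and all 4 were negative with quantile normalisation. The shift to one median lowered every gene alike in this comparison, so it could not have turned them positive.

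**Figure D5:**
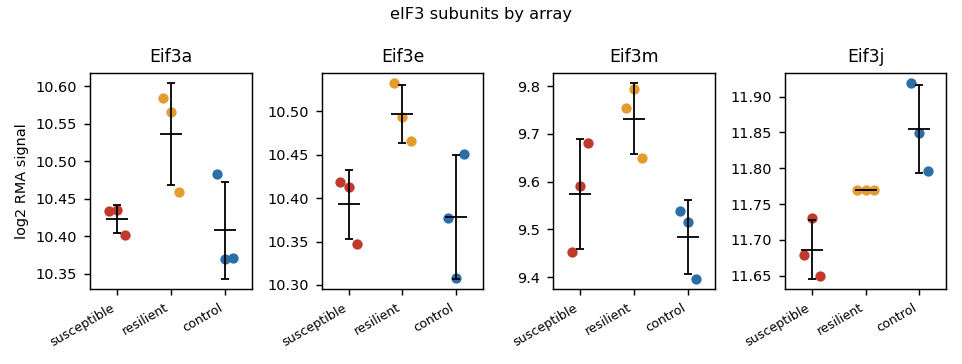
Log2 RMA signal of Eif3a, Eif3e, Eif3m and Eif3j in each array, with the group mean and SD (n = 3 each) and an axis of its own for each gene that does not start at 0. Susceptible arrays average below resilient arrays for all 4 genes, and for Eif3j both lie below control.

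The factors around the initiator transfer RNA showed both directions. Eif2a, which can deliver initiator transfer RNA apart from the eIF2 complex, had 9.72, 9.74 and 9.68 in susceptible arrays, 9.74, 9.74 and 9.62 in resilient arrays, and 9.84, 9.84 and 9.82 in controls. All 6 defeated arrays were below all controls, with a difference of -0.12 (SE 0.037, adjusted p 0.0787), nearly the same against each control comparison (-0.12 for susceptible and -0.13 for resilient). The exchange factor eIF2B, which recharges eIF2 and is the point at which the integrated stress response acts, was represented by Eif2b2 (-0.07), Eif2b3 (0.02) and Eif2b4 (0.15). Eif2b4 was 0.21 higher in susceptible than in control arrays (SE 0.062, adjusted p 0.0725). Eif2b3 had 8.83, 8.96 and 8.82 in susceptible arrays, 8.99, 9.03 and 8.97 in resilient arrays, and 8.98, 8.84 and 8.92 in controls. Its susceptible arrays lay below all resilient ones (-0.12, adjusted p 0.411), and both overlapped control. The eIF2 subunit gene Eif2s2 was 0.05 higher by the kept probe set and -0.10 by the other.

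Among the factors of start site choice and subunit joining, Eif6, which keeps the large subunit from joining too early, had 10.11, 10.20 and 10.24 in susceptible arrays, 10.10, 10.11 and 10.13 in resilient arrays, and 10.08, 9.99 and 10.00 in controls. All 6 defeated arrays exceeded the controls, with a difference of 0.12 (SE 0.038, adjusted p 0.0899). Eif1ax, Eif1ad and Eif5 had differences of 0.05, 0.02 and -0.04. In all, 9 of 42 members had defeated arrays entirely on one side of the controls, 6 above and 3 below, against 10.9% and 6.45% of all genes. The count of members without overlap was 20 in susceptible minus control (40.2% of all genes), 12 in resilient minus control (28.1%) and 9 in susceptible minus resilient (15.0%). By class, the last 9 were 8 of 21 initiation factors, 1 of the other 10 members (Eif4ebp2) and 0 of 11 ribosomal genes. A difference between the classes was not tested.

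The regulators gave small differences too. Eif2ak4 encodes GCN2, the eIF2 kinase that senses uncharged transfer RNA. It had 9.14, 9.22 and 9.29 in susceptible arrays, 9.14, 9.14 and 9.21 in resilient arrays, and 9.12, 9.04 and 9.14 in controls, with the defeated arrays just above the highest control (0.09, SE 0.041, adjusted p 0.138). Eif4ebp2, the eIF4E binding protein prominent in brain, had 10.46, 10.56 and 10.45 in susceptible arrays, 10.39, 10.32 and 10.42 in resilient arrays, and 10.42, 10.35 and 10.42 in controls. Its susceptible arrays were above all others, and the susceptible minus resilient difference was 0.12 (SE 0.045, adjusted p 0.411). Eef2k encodes the kinase that phosphorylates and slows elongation factor eEF2 and is active at synapses. Its signal was 8.28, 8.55 and 8.56 in susceptible arrays, 8.33, 8.27 and 8.52 in resilient arrays, and 8.08, 8.29 and 8.12 in controls. It had the largest positive difference of any member at 0.26 (SE 0.080, adjusted p 0.0865), the same from both of its probe sets, with control 2 inside the defeated range. Eif5a, which helps ribosomes through proline-rich stretches, had 10.76, 10.59 and 10.75 in susceptible arrays, 10.73, 10.42 and 10.35 in resilient arrays, and 10.81, 10.74 and 10.70 in controls. Resilient 2 and 3 stood apart below, and the resilient minus control difference was -0.25 (SE 0.092, adjusted p 0.217). A second Eif5a probe set gave -0.13 in resilient minus control and 0.02 in susceptible minus resilient, against 0.20 for the kept one, and in it resilient 2 and 3 did not stand apart.

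Of the 6 kinases named after S6, 4 were positive and 2 negative in defeated minus control. After the shift to one median, and also with quantile normalisation, 3 were positive and 3 negative. Rps6kc1 had 10.02, 9.95 and 9.91 in susceptible arrays, 9.84, 9.95 and 9.93 in resilient arrays, and 9.79, 9.85 and 9.72 in controls, with a difference of 0.15 (SE 0.043, adjusted p 0.0762) and resilient 1 inside the control range. Rps6ka1, an RSK kinase of the ERK pathway, had 8.40, 8.40 and 8.29 in susceptible arrays, 8.34, 8.41 and 8.29 in resilient arrays, and 8.56, 8.47 and 8.41 in controls, all controls being above (-0.12, SE 0.046, adjusted p 0.111). Its relative Rps6ka2 had 11.67, 11.61 and 11.55 in susceptible arrays, 11.56, 11.51 and 11.55 in resilient arrays, and 11.49, 11.53 and 11.40 in controls (0.10, SE 0.040, adjusted p 0.117). The 2 RSK genes thus lay on opposite sides of control. Rps6ka4, an MSK kinase that phosphorylates nuclear targets, had 8.13, 8.06 and 8.03 in susceptible arrays, 7.97, 7.92 and 8.03 in resilient arrays, and 8.01, 7.92 and 8.00 in controls. In susceptible minus resilient all 6 were positive (54.1% of all genes were), and 4 of 6 were after either other scaling.

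Genes outside the naming rule that act on translation were counted from lists. In the mTORC1 pathway 15 of 37 genes were in the table, 12 higher and 3 lower in defeated mice (median 0.08), and 1 was called higher (1.01% of all genes). That was Fnip2, a folliculin partner in nutrient sensing, with 9.15 ± 0.04 in susceptible, 9.06 ± 0.02 in resilient and 8.79 ± 0.12 in control arrays (SD, n = 3 each). It rose by 0.32 (SE 0.048, adjusted p 0.0371 in limma), and the call held in 8 of 16 alternatives, with adjusted p from 0.0160 to 0.126. Ddit4, a stress-induced brake on mTORC1, was second with 0.19 (adjusted p 0.0578) and was called in susceptible minus control (0.26, adjusted p 0.0454), where 1.85% of all genes were called higher and 0.551% lower. Mtor, the kinase itself, named after its values were seen, had 0.20 in defeated minus control (adjusted p 0.0578).

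For the poly(A) binding and cap partners, 15 of 33 genes were present, with 12 higher and 3 lower (median 0.06) and 1 call, Gigyf1, a partner of the 4EHP translational repressor. Gigyf1 averaged 7.84 ± 0.07 in susceptible, 7.76 ± 0.03 in resilient and 7.61 ± 0.02 in control arrays (SD, n = 3 each). It rose by 0.19 (SE 0.036, adjusted p 0.0467 in limma), in 5 of 16 alternatives, with adjusted p from 0.0168 to 0.138. Mknk2, a kinase of eIF4E, followed with 0.27 (adjusted p 0.0573) and was called in susceptible minus control (0.34, adjusted p 0.0461). Of 20 integrated stress response genes 13 were present, 10 higher and 3 lower (median 0.06), and none was called in defeated minus control. Ppp1r15a, which directs dephosphorylation of eIF2, had 0.22 (adjusted p 0.0529) and Gcn1l1, a partner of GCN2, 0.24 (adjusted p 0.0724). In susceptible minus control Ppp1r15a rose by 0.28 (adjusted p 0.0415) and the stress protein gene Nupr1 fell by 0.26 (adjusted p 0.0461). Ppp1r15a, Nupr1, Ddit4 and Mknk2 were each called in that comparison in 7 of 16 alternatives, with limma's adjusted p reaching 0.118. None of these calls in any list held with that allowance for the inferred selection.

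The remaining lists had no call in any comparison. Ribosome biogenesis had 21 of 71 genes, 15 higher and 6 lower in defeated mice (median 0.06), led by Rrp8 (0.17, adjusted p 0.0578) and Rrp12 (0.19, adjusted p 0.0746). Ribosome rescue and quality control had 12 of 20, 10 higher and 2 lower (median 0.08), led by Smg1 (0.14, adjusted p 0.0858) and Gtpbp2 (0.10, adjusted p 0.113). Cytosolic aminoacyl-tRNA synthetases had 4 of 22, 3 higher and 1 lower (median 0.08), led by Vars and Gars. Partners of the nascent chain had 5 of 22, 3 higher and 2 lower (median 0.01), led by Sec61b and Btf3. The medians of these lists lay near that of all genes, 0.04, and none was as low as the ribosomal -0.07.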

How the data were processed

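RNA recovered with Ago2 from amygdala was measured on 9 arrays, 3 per group, grouped by sample title. The authors deposited log2 signals made with RMA. Partek is the other tool in the submitters' processing notes, and versions and annotation build were not stated there. Values were joined to the deposited symbol table by probe set identifier, giving 11772 probe sets and 9803 symbols, and 9 value columns of that table whose names matched no sample were not used. Array medians were 7.11 to 7.19, each array's median correlation with the others was 0.997 to 0.998, and no pair of arrays was identical. Precision is limited by how few arrays there are.

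The deposited table appears to have been selected, which is inferred from its values and stated in no source used here: the smallest analysis of variance p per symbol never exceeded 0.287, and 974 probe sets with a larger p belonged to symbols that also had a smaller one. An alternative divided p by this limit before adjustment. The probe set with the highest mean was kept per symbol (13 members had several, 29 had 1), and 5 of the kept ones had a p above the limit.

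One limma model (R 4.3.3, limma 3.58.1) had 1 coefficient for each group and covered all 9803 genes, two-sided, with eBayes (prior degrees of freedom 3.40, residual 6), Benjamini-Hochberg adjustment over all genes, and a threshold of 0.05. The fit was tested on simulated data. Class and list medians were described without a test. Summaries used Python 3.11.15 (pandas 2.3.3, numpy 2.4.6), and plots matplotlib 3.10.9. The members and the gene and marker lists were chosen with earlier results of these data known. Any member could be named, and 1 is not reported here by name, though it counts in the totals. Values in every array were given, per role, for the 3 members with the smallest p in defeated minus control and the 1 with the smallest p in susceptible minus resilient, and from other lists the called genes and the 2 with the smallest p were named. The values in every array of Rpl23a, Eif4e1b, Eif6, Eif3a, Eif3e and Eif3m, and the genes called in susceptible minus control alone, were added after their values were seen. Alternatives covered scaling, probe set choice, low signals, array weights, the prior, a replicate block, leaving out each array, and ribosomal subsets. Symbols were matched to RefSeq (GRCm38.p6) for names and sequences.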

Additional observations from a re-analysis of the deposited data

How the results depend on the processing

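The count of members past an adjusted p of 0.05 was 0 in all 4 comparisons with quantile normalisation, with the mean over a symbol's probe sets, without the lowest 25% of mean signals and with the allowance for selection. Array weights, which gave susceptible 2 a weight of 2.89 and susceptible 1 a weight of 0.523, called 11 members in defeated minus control and 12 in susceptible minus control. In susceptible minus control, arrays shifted to one median gave 3 and a trend in the prior 1. Leaving out each array in turn gave 0 to 4 members in defeated minus control and 0 to 6 in susceptible minus control, with 4 and 6 without susceptible 1, and 0 in the other comparisons. Calls over all genes in defeated minus control moved from 126 to 2084 with array weights, 255 with a trend in the prior, 3 with quantile normalisation and 0 to 1333 without 1 array (1333 without susceptible 1, 430 without resilient 1 and 9 or fewer without any other). In susceptible minus control they moved from 235 to 3443, 407, 12 and 0 to 1930 (1930 without susceptible 1, 386 without resilient 1, 136 without resilient 3, 89 without control 4 and at most 1 without any other), and to 1497 with arrays shifted to one median. The cause was not tested.

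The initiation factor median depended on scaling. Shifted to one median it was -0.00040 in defeated minus control, -0.021 in susceptible minus control, 0.013 in resilient minus control and -0.023 in susceptible minus resilient; with quantile normalisation it was -0.00053, -0.027, 0.028 and -0.015. The shift itself moved the median of all genes from 0.04 to -0.01 in defeated minus control. With the mean over all probe sets the initiation factor median was 0.025 in defeated minus control and 0.016 in susceptible minus control. Leaving out each array gave ranges of 0.04 to 0.06, 0.026 to 0.054, 0.05 to 0.06 and -0.012 to 0.020 for the 4 comparisons in that order. The ribosomal ranges were -0.09 to -0.03, -0.10 to -0.08, -0.11 to -0.02 and -0.06 to 0.04, and ribosomal minus initiation gave -0.14 to -0.08, -0.15 to -0.12, -0.16 to -0.07 and -0.05 to 0.04. In 2 alternatives added after seeing the data, the defeated minus control ribosomal median was -0.11 with the ribosomal symbols of 1 probe set and -0.07 without Rpl12.

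Replicate numbers gave no clear pairing of the arrays. The 7 same-numbered pairs from different groups had correlations of -0.08 to 0.25 (median 0.07), 2 of 7 over 0.1. The 20 differently numbered pairs had -0.28 to 0.35 (median -0.03), 4 of 20 over 0.1. Only 2 arrays correlated best with their own number. So few pairs cannot settle whether the arrays were paired. With the number as a replicate block, in which control 4 has no partner and drops out of the comparisons with control, 0 members and 0 of 9803 genes were called in each comparison, and the ribosomal median was -0.06 in defeated minus control.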
